A study of Homo sapiens with 9 samples.

Results

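TXNIP, the thioredoxin-interacting protein, was followed together with its alpha-arrestin paralogs ARRDC1, ARRDC2, ARRDC3 and ARRDC4 and with MLXIP and MLX, the glucose-sensing transcription factor pair that controls it. These 7 genes were taken by name from 56865 genes. TXNIP had been picked for its higher level with the compound MS172, so its values in comparisons with MS172 are given as a description without a test. The other 6 genes were taken for their kinship to TXNIP or their role upstream of it. All 7 genes and the lists used below were chosen with earlier results of these data known, so their counts are not independent of the data. Reads were found for 6 of the 7 genes, and these 6 were among the 13914 genes that passed the filter on low counts.

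TXNIP binds thioredoxin and holds back its reducing activity, and it also lowers glucose uptake by drawing glucose transporters from the cell surface. Alpha-arrestins share the arrestin fold and act as adaptors that bring membrane proteins to ubiquitin ligases of the NEDD4 family. MLXIP, also called MondoA, forms a dimer with MLX, enters the nucleus when glucose 6-phosphate accumulates and binds carbohydrate response elements, of which those of TXNIP and ARRDC4 are the best-known examples. MLXIPL, also called ChREBP, is the second Mondo factor.

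The cells were labelled BxPC3, an established line of pancreatic adenocarcinoma, with the genotype p53Y220C/- in every group. Groups of 3 libraries each were treated with vehicle (DMSO), with MS172 or with PK9328, a small molecule developed to bind p53 that carries Y220C. The protocol gives 5 µM and 6 h for the compounds but names MS78 where titles and treatment labels name MS172, so for MS172 both rest on text that names a different compound. Nothing in the labels states that the 3 libraries of a group were separate cultures, and p-values then measure only the spread between these libraries, which may be technical.

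Depth was 24077353 to 28031886 estimated reads per library of poly(A)-selected RNA. Of 12 ductal and epithelial markers, 5 were below 1 CPM (read counts scaled to library size) in every library, among them EPCAM, CDH1 and KRT7, whereas KRT18 stood at 785 CPM and the mesenchymal filament gene VIM at 9391 CPM with DMSO. EPCAM, CDH1 and KRT7 near 0 beside VIM, COL1A2 (2416 CPM) and ZEB1 (91.8 CPM) go against the label of a ductal epithelial line. Other members of both lists go the other way. KRT8, KRT18, KRT19, SOX9 (289 CPM) and CLDN4 (122 CPM) were present with DMSO. Among mesenchymal genes, FN1 (0.667 CPM), COL1A1 (1.41 CPM) and COL3A1 (6.64 CPM) were low with DMSO, and CDH2 and PDGFRB were near 0. BxPC3 is therefore used here only as the name in the labels. The ductal list summed to between 2158 and 2326 CPM with DMSO, 2626 and 2789 CPM with MS172, and 2011 and 2092 CPM with PK9328. The mesenchymal list, with 3 of 8 genes below 1 CPM throughout, summed to between 11790 and 11970, 12400 and 12930, and 9984 and 10250 CPM. Of the 4 leukocyte markers 2 were below 1 CPM in every library, PTPRC and CD3E, as were all 3 endothelial markers. From the leukocyte list, CD68 averaged 20.1, 22.4 and 18.9 CPM and LYZ 1.26, 1.24 and 1.12 CPM with DMSO, MS172 and PK9328. In the same order, that list summed to between 20.5 and 22.3, 22.4 and 24.8, and 18.8 and 20.9 CPM. All 5 acinar and endocrine markers were at 0. The part of these marker levels in the results was not tested.

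The upstream sequences of TXNIP, ARRDC4 and ARRDC3 are shown because TXNIP and ARRDC4 are known targets of Mondo factors, while ARRDC3 is the paralog whose level moved furthest in these libraries. Each stretch ends 51 bases before the RefSeq start (GRCh38.p14), reads 5′ to 3′ on the strand of the gene and holds 200 bases. Capitals mark matches to the motifs described next, single cores other than the E-box left in lower case. TXNIP lies at chr1:145996630-145996829 (minus strand), ARRDC4 at chr15:97960453-97960652 (plus strand) and ARRDC3 at chr5:91383368-91383567 (minus strand).
TXNIP: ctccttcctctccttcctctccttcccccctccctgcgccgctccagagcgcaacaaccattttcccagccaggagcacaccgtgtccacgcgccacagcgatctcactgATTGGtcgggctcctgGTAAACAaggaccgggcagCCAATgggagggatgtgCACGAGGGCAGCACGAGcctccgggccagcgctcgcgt
ARRDC4: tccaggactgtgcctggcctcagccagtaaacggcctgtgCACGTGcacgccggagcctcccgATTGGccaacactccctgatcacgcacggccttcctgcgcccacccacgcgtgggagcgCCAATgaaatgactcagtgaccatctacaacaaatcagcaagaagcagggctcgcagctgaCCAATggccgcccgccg
ARRDC3: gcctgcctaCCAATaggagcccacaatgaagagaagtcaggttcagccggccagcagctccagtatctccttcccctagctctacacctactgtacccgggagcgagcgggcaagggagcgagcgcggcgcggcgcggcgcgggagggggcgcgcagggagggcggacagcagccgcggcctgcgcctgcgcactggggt

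The following motifs were searched on both strands of the 250 bases before each RefSeq start, for all 7 genes (10 starts) and for 35116 starts in all. CACGNG is the core that Mondo factors bind, and a pair of them in the form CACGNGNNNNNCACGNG is the spacing of a carbohydrate response element. The E-box CACGTG is 1 form of this core. CCAAT is bound by NF-Y, and GTAAACA is the core letters bound by forkhead factors such as the FOXO proteins.

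The main TXNIP start held 1 such pair of cores, 88 to 72 bases before the start, whose letters were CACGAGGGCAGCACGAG. Such a pair was present in 16 of the 35116 windows, or 0.0456%, and in no other member window. The search took only these exact letters and missed ARRDC4, named above among the best-known elements. The share is therefore that of these letters and not of all carbohydrate response elements. The same TXNIP window held 2 CCAAT boxes (in 32.0% of windows), on opposite strands, and 1 forkhead core at 124 to 118 bases before the start (in 2.98% of windows). ARRDC4 held 1 E-box at 210 to 205 bases before the start (in 6.34% of windows) and 3 CCAAT boxes. MLX also held 1 E-box, 50 to 45 bases before its start. At the main ARRDC3 start the searched letters matched only 1 CCAAT box, and a second ARRDC3 start held a forkhead core 29 to 23 bases before it. A match describes the letters and does not show a binding site.

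**Figure D1:**
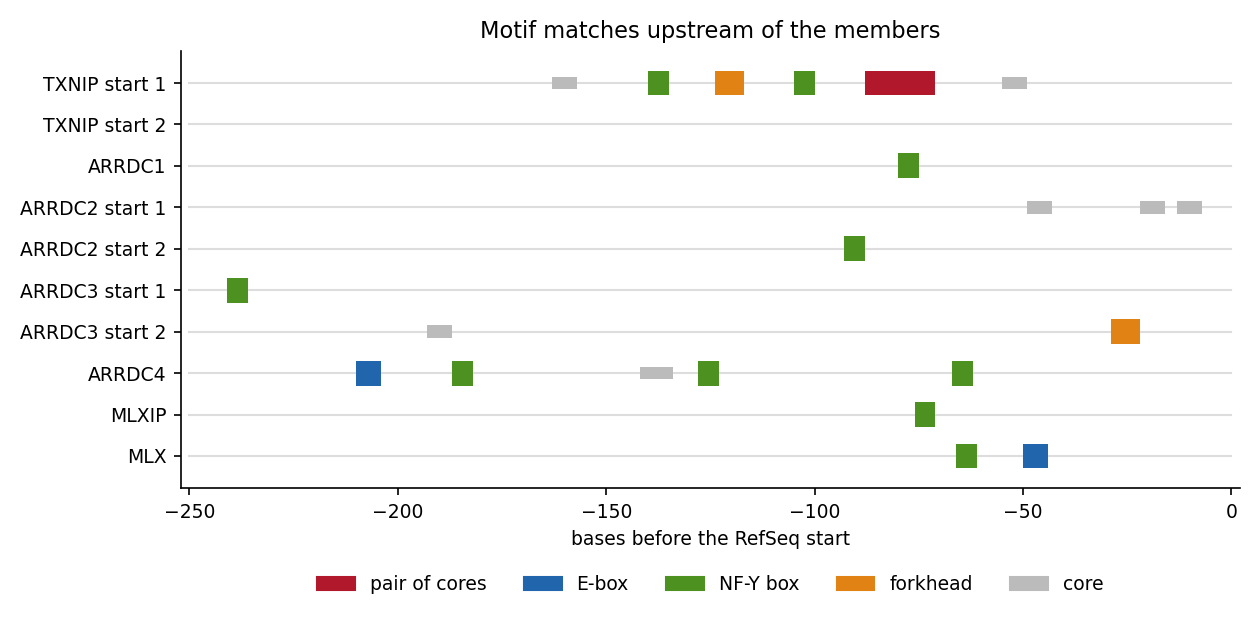
Positions of motif matches in the 250 bases before each RefSeq start of the 7 genes, with distance from the start in bases on the horizontal axis and 1 line per start; narrow grey bars are single cores (in 26.7% of all windows), red is the pair, and the NF-Y box is the CCAAT match. The pair of cores, 88 to 72 bases before the start, appears in the main TXNIP window alone among the 10 windows.

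TXNIP (chromosome 1, 145992435 to 145996600, minus strand, GENCODE 29 on GRCh38) stood at 76.1, 76.5 and 76.9 CPM in the DMSO libraries. With MS172 it stood at 199, 202 and 201 CPM. With PK9328 it stood at 65.1, 62.4 and 65.4 CPM. The 3 groups did not overlap, with MS172 highest and PK9328 lowest, and within a group the libraries lay within a few percent of each other.

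The log2 fold change with MS172 was 1.39, and 49 of the 13914 genes tested had a larger one. This is the difference for which TXNIP was picked. With PK9328, TXNIP fell against DMSO by 0.25 ± 0.04 on the log2 scale (SE, n = 3 each; edgeR adjusted p = 3.7e-05), lower in 3 of 3 libraries. The DMSO libraries of that test also entered the choice of TXNIP. In a fit with fragment length as a covariate the difference was -0.26 and lost its call (edgeR adjusted p = 0.090). The PK9328 libraries had estimated fragments of 249.5 to 263.0 bases, where DMSO libraries had 281.2 to 289.1 bases and MS172 libraries 274.1 to 292.8 bases. In bulk RNA, a change in the share of cells that express a gene and a change per cell cannot be told apart.

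**Figure D2:**
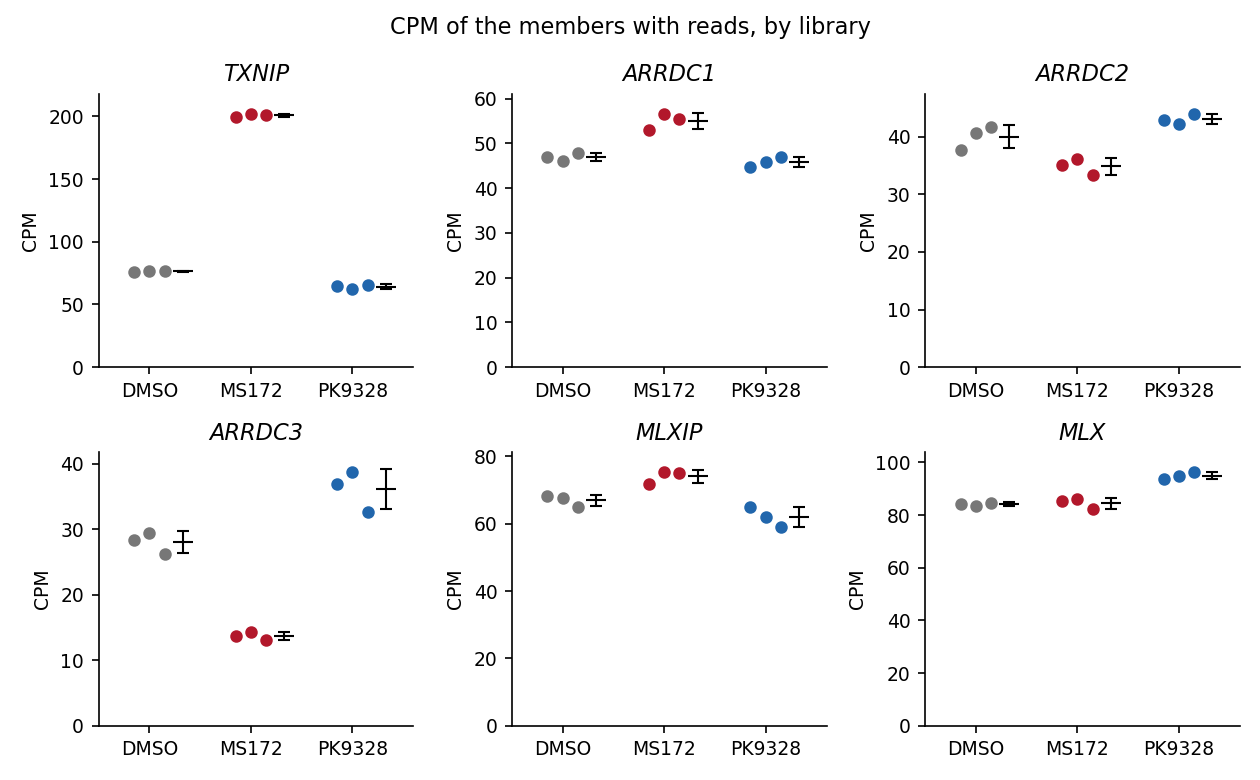
CPM of the 6 genes with reads, with 1 point per library and the mean ± SD of 3 libraries beside each group in black; axes start at 0 and differ between genes. TXNIP is highest with MS172 (199 to 202 CPM) and ARRDC3 lowest with MS172 (13.1 to 14.4 CPM), and PK9328 lies on the other side of DMSO in both.

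ARRDC3, an adaptor that sends the beta2-adrenergic receptor and integrin beta4 to degradation, was lowest where TXNIP was highest. The gene (chromosome 5, 91368724 to 91383359, minus strand) stood at 28.4, 29.5 and 26.2 CPM with DMSO. It stood at 13.7, 14.4 and 13.1 CPM with MS172, and at 37.0, 38.7 and 32.7 CPM with PK9328. All MS172 libraries lay below all DMSO libraries and all PK9328 libraries above them.

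ARRDC3 fell with MS172 by 1.03 ± 0.07 on the log2 scale (SE, n = 3 each; edgeR adjusted p = 2.6e-12), to 0.489 times the DMSO mean, and 233 of 13914 genes had a larger fall. It rose with PK9328 by 0.36 ± 0.06 (edgeR adjusted p = 0.00017). The rise was 0.60 with the fragment length covariate (edgeR adjusted p = 0.016), over 1.5 times the value without it. Reads of ARRDC3-AS1, the RNA of the opposite strand that overlaps the gene by 3011 bases, averaged 14.4 a library against 691 for ARRDC3. Whether the counting used strand is not given in the sources used here.

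ARRDC2, a less studied alpha-arrestin (chromosome 19, 18001132 to 18014102, plus strand), stood at 37.7, 40.6 and 41.7 CPM with DMSO, at 35.0, 36.2 and 33.3 CPM with MS172, and at 42.9, 42.3 and 44.0 CPM with PK9328. The 3 groups did not overlap, in the same order as for ARRDC3. It fell with MS172 by 0.20 ± 0.05 (edgeR adjusted p = 0.0048). With PK9328 its log2 fold change was 0.10 (95% interval -0.00 to 0.21, edgeR adjusted p = 0.19).

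ARRDC1, which takes part in the budding of vesicles from the plasma membrane, is found on chromosome 9 from 137605654 to 137615360 (plus strand). Its levels were 46.9, 46.2 and 48.0 CPM with DMSO, 53.0, 56.6 and 55.5 CPM with MS172, and 44.7, 45.9 and 46.9 CPM with PK9328. MS172 lay above both other groups, which overlapped. ARRDC1 rose with MS172 by 0.23 ± 0.05 (edgeR adjusted p = 0.00046) and had a log2 fold change of -0.04 with PK9328 (95% interval -0.13 to 0.06, edgeR adjusted p = 0.69; 0.00073 with the fragment length covariate). With the centred offset for GC content and length the rise with MS172 was 0.13 (edgeR adjusted p = 0.022). AL590627.2, a transcript of the same strand that overlaps nearly all of ARRDC1, was not analysed here, and reads of both could be counted for ARRDC1.

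ARRDC4, the paralog known to follow glucose together with TXNIP (chromosome 15, 97960698 to 97973838, plus strand), had 0 estimated reads in all 9 libraries. A count of 0 allows up to 3 reads, or 0.103 to 0.133 CPM depending on the library, as far as counting error goes. ARRDC5, the remaining alpha-arrestin and no member here, was also at 0 in all 9 libraries. No rise or fall of ARRDC4 could be measured at this depth, and 4035 of 19692 protein-coding genes were likewise at 0 throughout.

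The Mondo factors had small log2 fold changes. MLXIP (chromosome 12, 122078722 to 122147347, plus strand) stood at 68.2, 67.6 and 65.1 CPM with DMSO, 71.9, 75.3 and 75.1 CPM with MS172, and 65.0, 62.0 and 59.2 CPM with PK9328. MS172 lay above the DMSO libraries and PK9328 below them. MLXIP rose with MS172 by 0.15 ± 0.05 (edgeR adjusted p = 0.014), a call that was lost without DMSO replicate 3 (0.13, edgeR adjusted p = 0.058) or MS172 replicate 2 (0.13, edgeR adjusted p = 0.056). The rise was 0.23 with the GC and length offset that also sets library levels (edgeR adjusted p = 2.9e-05). With PK9328 its log2 fold change was -0.11 (95% interval -0.20 to -0.02, edgeR adjusted p = 0.11), and it was 0.028 with the fragment length covariate.

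MLX, the partner of MLXIP (chromosome 17, 42567068 to 42573239, plus strand), stood at 84.3, 83.3 and 84.7 CPM with DMSO and at 85.2, 86.0 and 82.1 CPM with MS172, which overlapped. With PK9328 it stood at 93.8, 94.7 and 96.2 CPM, above all other libraries. Its log2 fold change with MS172 was 0.01 (95% interval -0.08 to 0.09, edgeR adjusted p = 0.92). MLX rose with PK9328 by 0.17 ± 0.04 (edgeR adjusted p = 0.0024), a call lost with the fragment length covariate (0.14, edgeR adjusted p = 0.52). PSMC3IP, which overlaps MLX by 925 bases on the opposite strand, averaged 121 reads a library against 2285 for MLX. MLXIPL, from the list of relatives outside the 7 genes, averaged 12.1, 11.3 and 11.7 CPM with DMSO, MS172 and PK9328 and was not called in either comparison (edgeR adjusted p = 0.41 and 0.80).

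Of the 5 measured genes other than TXNIP, 2 rose (ARRDC1 and MLXIP) and 2 fell (ARRDC2 and ARRDC3) with MS172. Among all genes tested 35.1% changed in that comparison, 17.9% upward and 17.2% downward. The groups did not overlap for 4 of the 5, 2 higher and 2 lower, where they did not for 44.7% of all genes, 22% higher and 22.7% lower. With PK9328, 2 of 6 measured genes rose (ARRDC3 and MLX) and 1 fell (TXNIP), where 15.5% of all genes changed, 7.98% upward and 7.48% downward. Groups did not overlap for 5 of the 6, 3 higher and 2 lower, where they did not for 31.3% of all genes, 15.9% higher and 15.4% lower. Both comparisons share the DMSO libraries, so their values stand side by side and are not independent.

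**Figure D3:**
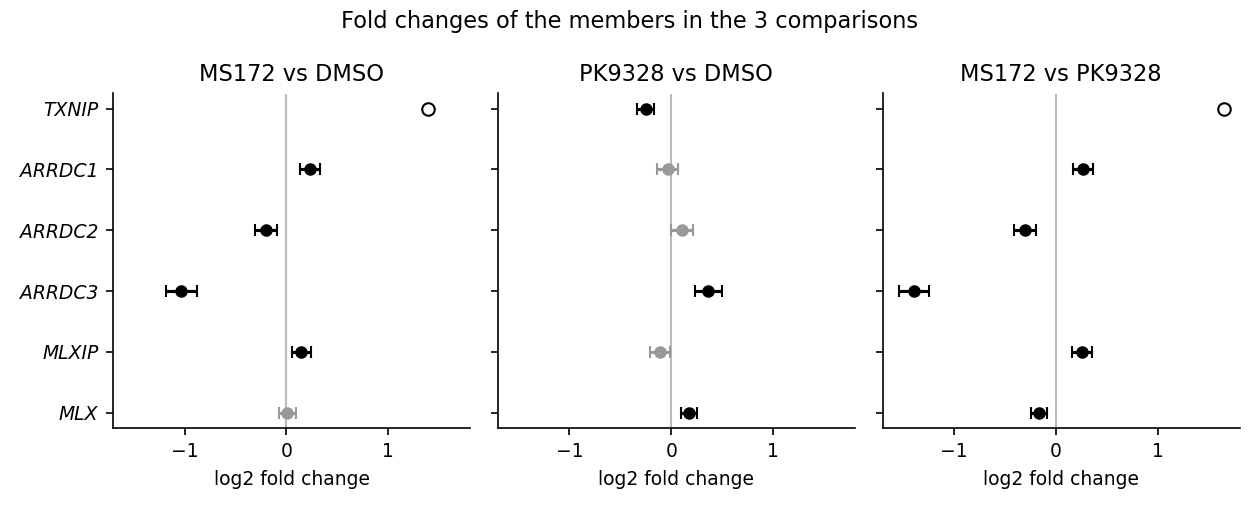
Log2 fold changes of the 6 measured genes in the 3 comparisons, with 95% intervals; black points passed an edgeR adjusted p of 0.05, grey points did not, and open circles are TXNIP values given without a test or interval. With MS172 against DMSO, TXNIP stands at 1.39 and ARRDC3 at -1.03, and the other 4 genes lie between -0.20 and 0.23.

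The compounds were also set against each other directly. MS172 libraries had more ARRDC1 (log2 fold change 0.26, edgeR adjusted p = 4.2e-05) and more MLXIP (0.26, edgeR adjusted p = 3.3e-05) than PK9328 libraries. They had less ARRDC3 (-1.40, edgeR adjusted p = 7.2e-16), less ARRDC2 (-0.31, edgeR adjusted p = 2.6e-05) and less MLX (-0.17, edgeR adjusted p = 0.00087). All 5 tested genes were called, 2 higher and 3 lower, where 47.7% of all genes were, 23.3% higher and 24.4% lower. In none of the 5 did the groups overlap, and they did not for 55.4% of all genes, 26.3% higher and 29.1% lower. TXNIP, given without a test, was higher with MS172 than with PK9328 by 1.64 on the log2 scale.

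With the fragment length covariate only ARRDC3 kept its call among these 5 (-1.64, edgeR adjusted p = 1.9e-10). The values of ARRDC1, ARRDC2, MLXIP and MLX were then 0.23, -0.22, 0.11 and -0.13, with edgeR adjusted p from 0.13 to 0.45. With the centred GC and length offset the ARRDC1 value was 0.13 (edgeR adjusted p = 0.015). Fragment length separates PK9328 from the other groups without overlap, so the compound and the covariate can only partly be told apart.

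Levels of different genes were compared per length, in TPM, which divides reads by transcript length. With DMSO the order was ARRDC1 at 49.1 TPM ± 1.6 (SD, n = 3) and MLX at 47.6 TPM ± 1.4, whose ranges overlapped. TXNIP followed at 34.3 TPM ± 1.2, ARRDC2 at 21.8 TPM ± 1.2, MLXIP at 9.88 TPM ± 0.46 and ARRDC3 at 8.50 TPM ± 0.79, without overlap between neighbours. These values sum all transcripts of a gene. ARRDC1-201, with 88.0% of ARRDC1 reads, alone averaged 37.1 TPM with DMSO, and MLX-203 and MLX-202 averaged 35.7 and 9.21 TPM. The first place of ARRDC1 therefore rests partly on transcripts with few of its reads. With MS172 TXNIP came first, at 80.9 TPM ± 1.2, ahead of ARRDC1 at 49.8 TPM ± 2.9, and ARRDC3 came last of the 6 at 3.88 TPM ± 0.24. With PK9328 MLX led at 55.4 TPM ± 0.93, and ARRDC3, at 12.2 TPM ± 2.3, stood above MLXIP at 9.68 TPM ± 0.47.

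TPM has no correction for composition, and between MS172 and DMSO the median tested gene moved by -0.18 on the log2 TPM scale, against -0.02 for the TMM-scaled fold changes. On the TPM scale, ARRDC1 and MLXIP differed by 0.02 and -0.01 between MS172 and DMSO, or 0.20 and 0.16 above the median gene. For MLXIP the rise is therefore a rise relative to the median gene. For ARRDC1 the value also depends on transcripts with few of its reads. ARRDC1-201 alone averaged 37.1 TPM with DMSO (36.5 to 38.1) and 39.6 TPM with MS172 (37.9 to 40.7), ranges that overlapped. The part of scaling and of these transcripts in the ARRDC1 value was not tested. TXNIP and ARRDC3 differed by 1.24 and -1.13 on the TPM scale. A ratio of 2 genes within a library does not depend on the scaling.

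The ratio of TXNIP to ARRDC3 in TPM was 3.96, 3.85 and 4.33 in the DMSO libraries. It was 21.5, 19.4 and 21.8 with MS172, and 2.57, 1.99 and 2.90 with PK9328. The 3 groups did not overlap, and the MS172 ratios lay far above the others. The ratio of TXNIP to MLX was 0.714 to 0.727 with DMSO, 1.85 to 1.96 with MS172 and 0.518 to 0.552 with PK9328. Since TXNIP was picked on these values, the ratios are given as a description.

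**Figure D4:**
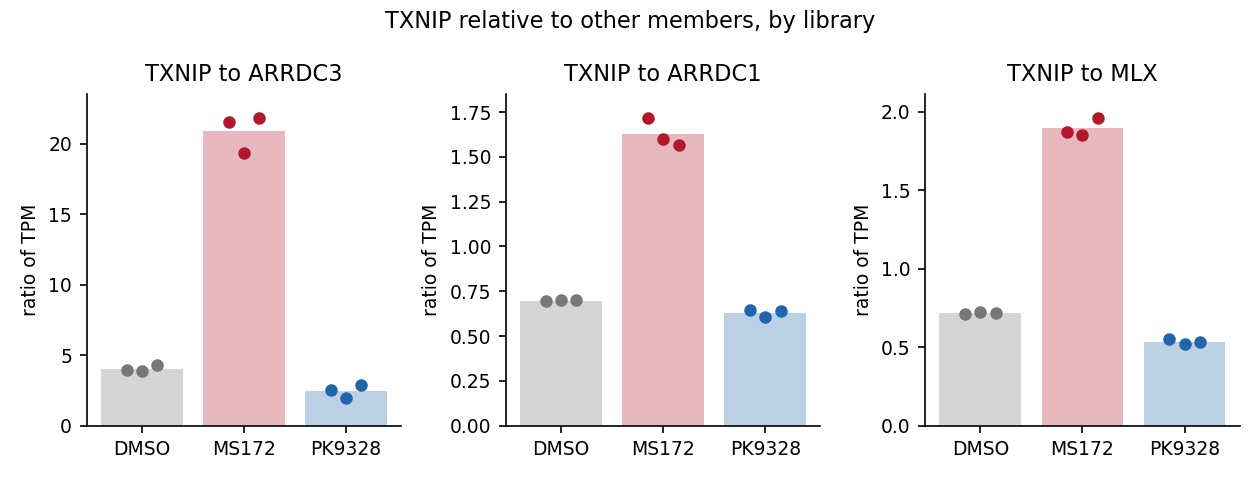
Ratio of TXNIP TPM to ARRDC3, ARRDC1 and MLX TPM, with 1 point per library and bars at the mean of 3 libraries; axes start at 0 and differ between panels. The TXNIP to ARRDC3 ratio is 19.4 to 21.8 with MS172, 3.85 to 4.33 with DMSO and 1.99 to 2.90 with PK9328.

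Most reads of each gene were assigned to 1 transcript, and the split between transcripts is an estimate made by the authors' quantification. TXNIP-204 (8 exons, 2926 bases) held 99.97% of TXNIP reads, and its share lay above 99.9% on average in each group. ARRDC3-201 held 99.4% of ARRDC3 reads and MLXIP-201 held 99.7% of MLXIP reads. ARRDC1-201 held 88.0% of ARRDC1 reads, and a noncoding transcript, ARRDC1-210, 5.43%.

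ARRDC2 used 2 starts. ARRDC2-202, from the upstream start, held 90.6% ± 4.0 of ARRDC2 reads with DMSO, 96.8% ± 1.9 with MS172 and 93.1% ± 2.1 with PK9328 (SD, n = 3 each). ARRDC2-201, from the inner start, held 8.91% ± 3.7, 3.02% ± 2.0 and 6.69% ± 2.1. Its lowest and highest shares were 4.66% and 11.6% with DMSO and 0.786% and 4.46% with MS172, so these ranges did not overlap, while that of PK9328 overlapped with DMSO. The MS172 libraries had 858, 815 and 798 estimated ARRDC2 reads, so the ARRDC2-201 shares rest on few reads. How often such ranges fail to overlap for other transcripts was not examined, and a shift between the starts was not tested. MLX-203 and MLX-202 held 77.7% and 18.8% of MLX reads, and their shares overlapped between all groups.

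Partners of TXNIP in redox control were examined next. Of 15 thioredoxin and peroxiredoxin genes, 11 rose and none fell with MS172, with a median log2 fold change of 0.16. Over all genes tested, 17.9% rose and 17.2% fell, with a median of -0.02. TXNRD1, which reduces oxidised thioredoxin, rose by 1.02 (edgeR adjusted p = 2.7e-19), SRXN1, which repairs overoxidised peroxiredoxins, by 0.36 (edgeR adjusted p = 8.3e-08) and PRDX1, a peroxide-reducing enzyme, by 0.29 (edgeR adjusted p = 3.6e-07). TXN, the thioredoxin that TXNIP binds, rose by 0.26 (edgeR adjusted p = 3.3e-06; named for that role after its value was seen). With PK9328, 2 rose (TXNRD1 by 0.36 and SRXN1 by 0.15) and PRDX1 fell by 0.26, at a list median of -0.04, where 7.98% of all genes rose and 7.48% fell, with a median of 0.00. The calls with PK9328 in this and the following lists were not refitted with fragment length as a covariate.

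Glucose uptake and phosphorylation genes lie upstream of Mondo factors and downstream of TXNIP. Of 17 measured genes of 18, 8 rose and none fell with MS172, at a median of 0.10, where 17.9% of all genes rose and 17.2% fell. HK2, a hexokinase that makes glucose 6-phosphate, rose by 0.60 (edgeR adjusted p = 2.5e-10), and the glucose transporters SLC2A3 and SLC2A1 by 0.31 and 0.26. HK1, which catalyses the same step, stood higher with DMSO (232 CPM, against 39.4 CPM for HK2). It was not called with MS172 (0.06, edgeR adjusted p = 0.22). With PK9328, 4 rose and none fell, at a median of 0.09, where 7.98% of all genes rose and 7.48% fell. These were HK2 by 0.48 (edgeR adjusted p = 8.2e-08), PFKFB4, which makes fructose 2,6-bisphosphate, by 0.37, SLC2A3 by 0.13 and SLC2A1 by 0.15.

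Further carbohydrate response genes, known targets of ChREBP or MondoA in other tissues, were measured in 10 of 13 cases. With MS172, 5 rose and 1 fell, at a median of 0.23 (17.9% and 17.2% of all genes). FASN, the fatty acid synthase, rose by 0.65 (edgeR adjusted p = 2.0e-14), BHLHE40, a circadian repressor, by 0.38 and SCD, a fatty acid desaturase, by 0.37. ACACA and ACLY, enzymes of fatty acid synthesis, rose by 0.20 and 0.13, and KLF10 fell by 0.52 (edgeR adjusted p = 5.0e-08). FASN and SCD are also targets of the sterol-sensing SREBP factors. With PK9328, 3 rose and 1 fell, at a median of 0.12 (7.98% and 7.48% of all genes). FGF21, a stress-induced hormone, rose from 0.655 to 1.78 CPM (edgeR adjusted p = 0.0014), SCD by 0.13 and BHLHE40 by 0.15, and KLF10 fell by 0.19.

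The MAX network, bHLHZip factors to which MLX also belongs, was measured in 9 of 10 genes. With MS172, 4 rose and 1 fell (MGA, by 0.19), at a median of 0.09, where 17.9% of all genes rose and 17.2% fell. MNT, a repressor that can pair with MLX, rose by 0.55 (edgeR adjusted p = 1.2e-08), and MXD4 and MXD1, of the same kind, by 0.31 and 0.36, and MAX itself by 0.19. With PK9328, 4 rose and none fell, at a median of 0.11, where 7.98% of all genes rose and 7.48% fell. Among them were MXD1 by 0.57 (edgeR adjusted p = 6.2e-05) and MNT by 0.41 (edgeR adjusted p = 6.7e-06). The others were MAX by 0.24 and MYCL by 0.39.

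FOXO proteins and the glucocorticoid receptor are other known activators of TXNIP and ARRDC genes. Of 16 measured genes of 17 in that list, 4 rose and 3 fell with MS172, at a median of -0.01. These shares lie near those of all genes, 17.9% and 17.2%, and are no result about the list. PER1 rose by 0.71 (edgeR adjusted p = 2.3e-10), SGK1, a kinase, by 0.58, CCNG2, an atypical cyclin, by 0.49 and IRS2, an insulin receptor substrate, by 0.41. KLF9, FKBP5 and NR3C1, the glucocorticoid receptor gene itself, fell by 0.25, 0.11 and 0.22. With PK9328, 6 rose and none fell, at a median of 0.16, where 7.98% of all genes rose and 7.48% fell. TSC22D3, the glucocorticoid-induced leucine zipper GILZ, rose by 1.16 (from 18.0 to 40.2 CPM, edgeR adjusted p = 5.3e-12), and PER1 by 0.55. TSC22D3 was lower with MS172 than with PK9328 by 1.29 on the log2 scale (edgeR adjusted p = 1.6e-13).

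Of the NEDD4 family ubiquitin ligases 8 of 9 were measured, of other arrestin-fold genes 6 of 8, and of partners and clients of the arrestins 4 of 7. In each of these lists 1 gene rose and 2 fell with MS172, at medians of -0.11, -0.04 and -0.07, where 17.9% of all genes rose and 17.2% fell. With PK9328 1 gene rose in each list and 1 of the partners fell, at medians of 0.04, 0.10 and 0.05, where 7.98% of all genes rose and 7.48% fell. With MS172 NEDD4L rose by 0.15 (edgeR adjusted p = 0.0044) while ITCH, which ubiquitinates TXNIP, fell by 0.15 and SMURF1 fell by 0.10, and with PK9328 ITCH rose by 0.21 (edgeR adjusted p = 0.0026). Among other genes of the arrestin fold, VPS26B, a retromer subunit, rose by 0.13 with MS172, and RGP1 and the beta-arrestin ARRB1 fell by 0.21 and 0.27. VPS26C, entered in the list under its older name DSCR3, rose by 0.27 with PK9328 (edgeR adjusted p = 5.2e-05).

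Among the partners and clients, DDIT4, a stress protein that forms a complex with TXNIP, fell by 0.33 with MS172 (edgeR adjusted p = 6.1e-08) and rose by 0.42 with PK9328 (edgeR adjusted p = 1.7e-09). The RNA of ITGB4, the integrin whose protein ARRDC3 sends to degradation, rose by 0.13 with MS172 (edgeR adjusted p = 0.0050) and fell by 0.19 with PK9328 (edgeR adjusted p = 0.00038). Protein levels were not measured here, so these values do not bear on that degradation. PRKAA1, a catalytic subunit of AMPK, fell by 0.17 with MS172.

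**Figure D5:**
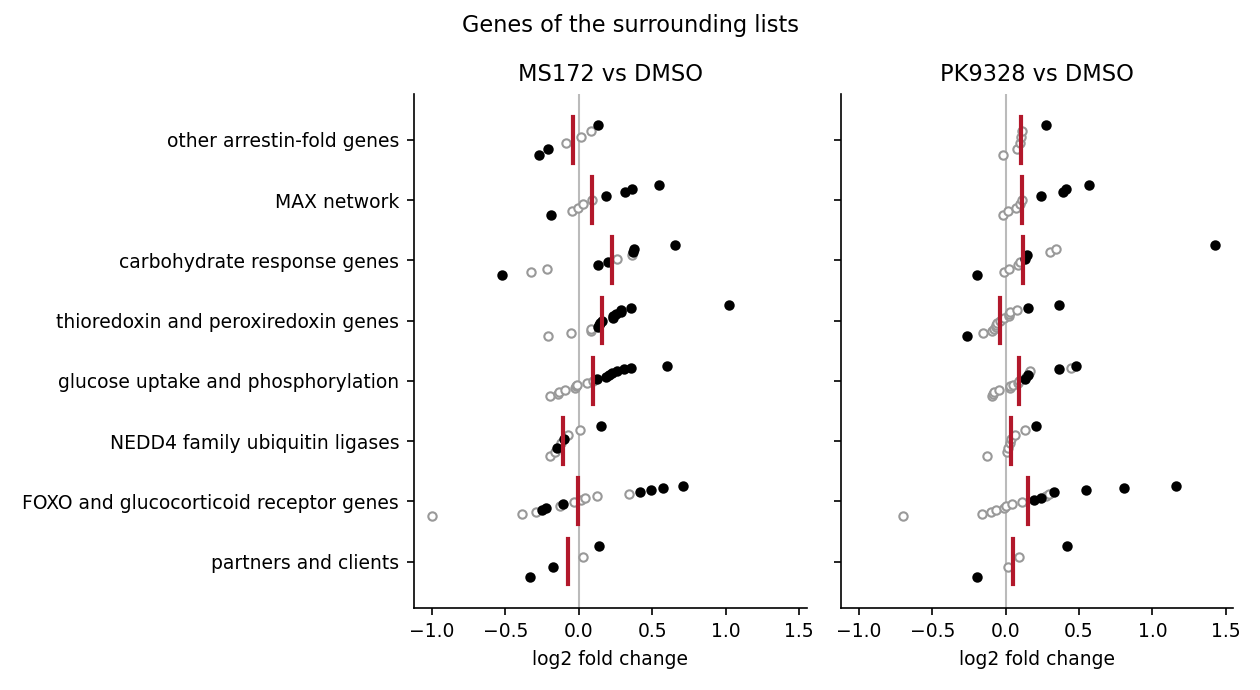
Log2 fold changes of the measured genes of 8 surrounding lists with MS172 (left) and PK9328 (right) against DMSO; filled points passed an edgeR adjusted p of 0.05, open points did not, and red lines are list medians. The thioredoxin list lies mostly right of 0 with MS172 (median 0.16) and around 0 with PK9328 (median -0.04).

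The genes whose pattern over the 9 libraries was most like that of TXNIP were sought among 11329 protein-coding genes of at least 1 CPM, by the root mean square difference of centred log2 CPM. The 4 nearest were the metallothioneins MT1E (0.09), MT2A (0.11) and MT1M (0.16) and the pseudokinase TRIB1 (0.17). MT1E averaged 400 CPM with DMSO, 1172 CPM with MS172 and 347 CPM with PK9328. Metallothionein genes are similar in sequence, so their single values may be uncertain, which was not tested. For ARRDC3 the 4 nearest were R3HCC1L (0.10), the zinc finger gene ZNF621 (0.11), KRBOX4 (0.12) and ALKBH8, a tRNA-modifying enzyme (0.12). With 3 groups many genes share an order, and by Pearson correlation only 1 of each 4 was taken again (MT1E and ZNF621).

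The 15 other genes whose searched window held the pair of cores were looked at after the TXNIP match had been seen. Of 12 measured, 4 rose and 2 fell with MS172, with log2 fold changes from -0.47 to 0.51 and a median of 0.07. Over all genes 35.1% changed, 17.9% upward and 17.2% downward. With PK9328, 2 rose (GFPT1 by 0.22 and KCTD5 by 0.14) and none fell, at a median of 0.09, where 7.98% of all genes rose and 7.48% fell. With MS172 GFPT1, the entry enzyme of the hexosamine pathway, rose by 0.36 (edgeR adjusted p = 4.8e-07), MTHFS by 0.51, KCTD5 by 0.24 and RAN by 0.13, and TIGD1 and AKAP10 fell by 0.47 and 0.19.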

How the data were processed

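Per the file headers, the deposited tables give, for 197653 transcripts in each library, length, effective length, TPM and an estimated count of reads. TPM as deposited corrects for effective length and sums to the same total in every library. Submitters' processing notes list FastQC 0.11.8 and hg38. Which program made the counts is not given in the sources used here.

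Transcript names without version were looked up in GENCODE 29 (193348 matched, the rest holding 0.356% to 0.382% of reads), summed to genes and rounded. Groups were compared with edgeR 4.0.16 (quasi-likelihood, R 4.3.3), TMM, filterByExpr, 1 fit of 9 libraries (6 residual degrees of freedom) and Benjamini-Hochberg adjustment over 13914 genes at 0.05. Rises and falls are log2 fold changes of that fit, CPM uses TMM-scaled library sizes, and SE and 95% intervals come from the F statistic. The edgeR fit and comparison were tested on simulated counts with known changes and no effect of fragment length or GC content. The other steps were not tested in this way. Fragment length is transcript length minus effective length (median over transcripts of at least 3000 bases).

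The 7 genes and all lists were chosen with earlier results of these data known. Named were the 7 genes, up to 3 called members per list with the smallest p for MS172 and 2 for PK9328, and the 4 genes nearest in pattern to TXNIP and ARRDC3. Other list members are named where 5 or fewer were called in a direction, after their values were seen, and TXN and HK1 for their role. TSC22D3 is also given between the compounds, outside this rule. Promoter sequences are from RefSeq (GRCh38.p14), with windows for 7 of 7 genes. Alternatives were RLE, DESeq2 1.42.0, limma-voom (limma 3.58.1), other filters, a replicate block, length-scaled TPM, a fragment length covariate, fits of 6 libraries and each library left out. An offset for GC content and length (mgcv 1.9.3, 2 forms) was chosen after seeing the data.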

Additional observations from a re-analysis of the deposited data

How the results depend on the processing

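Over 306 values of single genes and alternatives, 287 kept direction and side of the threshold (for TXNIP with MS172, stayed within 1 SD). The fall of ARRDC3 with MS172 ranged from -1.08 to -0.94 and was called in all 17 alternatives, as was its rise with PK9328 (0.30 to 0.60). The TXNIP value with MS172 against DMSO ranged from 1.39 to 1.49, highest with the GC and length offset that also sets library levels (1.43 when centred). With the fragment length covariate, 178 genes instead of 2151 changed with PK9328 (111 higher, 67 lower) and 2480 instead of 6641 between the compounds, and 1 member instead of 3 and 1 instead of 5 were called. That covariate also turned ARRDC1 (0.00073, edgeR adjusted p = 1.00) and MLXIP (0.028, edgeR adjusted p = 0.94) with PK9328 upward, neither being called in any fit. With length-scaled TPM 1066 genes changed with PK9328. Leaving out 1 library gave 1384 (without DMSO replicate 1) to 2215 genes with PK9328, and 1400 without PK9328 replicate 2. MLX with MS172 was -0.00037, -9.6e-05 and -0.0065 without DMSO replicate 2, MS172 replicate 1 and MS172 replicate 2, and ranged from -0.0065 to 0.027 over libraries left out. The offset that also sets library levels gave 3937 higher and 1543 lower genes with MS172 (2486 and 2398 without it), 4724 and 2314 between the compounds (3240 and 3401) and 1048 and 1565 with PK9328 (1110 and 1041), called MLX higher with MS172 (0.11, edgeR adjusted p = 0.020) and lost it between the compounds (-0.05, edgeR adjusted p = 0.32). The cause of these changes was not tested. Same-numbered libraries did not deviate together (r from -0.057 to 0.017 over 9 pairs, and 1 of 9 libraries correlated best with its own number). The replicate block gave 4597, 1884 and 6405 changed genes with MS172, with PK9328 and between the compounds, and changed no call of the 7 genes. Groups of 3 limit every interval given. ARRDC4 had 0 reads in all 9 libraries, and the reason was not tested.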
